A study of Mus musculus with 4 samples.

Results

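This report follows 10 genes of the bone morphogenetic protein (BMP) pathway in mouse brain endothelial cells (ECs) that lacked the transcription factor FOXQ1. The genes were *Eng*, *Acvrl1*, *Bmpr2*, *Smad1*, *Smad5*, *Smad6*, *Smad7*, *Id1*, *Id2* and *Id3*. They were picked by gene symbol, as the receptors, signal carriers, inhibitors and target genes of the endothelial branch of the pathway, and all 10 were among the 12693 gene symbols of the RNA-seq table. The data did not show a difference in any of the 10 between *Foxq1* cKO and wild-type cells. *Eng* came nearest in the main limma fit, at 80.4% of its wild-type mean. *Eng* and *Smad1* were the genes whose *Foxq1* cKO values both lay below both wild-type values. The pathway genes with the smallest p-values lay around these 10: the pseudoreceptor *Bambi* and the latent TGF-beta binding protein *Ltbp4* had higher values in both *Foxq1* cKO samples, and the target genes *Ccn1*, *Ccn2* and *Fn1* lower ones, with an adjusted p of 0.857 in limma for each. The lists of pathway genes that held them were chosen with earlier results of these data known.

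The RNA came from C57BL/6 embryos at embryonic day 18, in 2 wild-type samples and 2 samples of the genotype FOXQ1fl/fl;Tie2-Cre, named *Foxq1* cKO here. The labels give the tissue as brain, and the methods of the study describe cerebral cortex cells sorted by FACS with an anti-CD31-FITC antibody, with littermates that lacked the Cre transgene as controls. Whether the controls carried the floxed allele is not given in the sources used here, and nothing in them says that the 2 samples of a group came from separate embryos or how many embryos each held. Tie2-Cre is driven by the promoter of the angiopoietin receptor gene *Tek*, which is active in ECs and also in blood-forming cells and their progeny, so the deletion in these embryos need not be limited to brain ECs.

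In ECs, the circulating ligands BMP9 and BMP10 bind the type I receptor ALK1 (the product of *Acvrl1*) and the type II receptor BMPR2, with endoglin (the product of *Eng*) as a co-receptor. The type I receptor phosphorylates Smad1 and Smad5, which enter the nucleus with Smad4 and switch on target genes, first of all the *Id* genes and the inhibitory Smads. Loss of *ENG* or *ACVRL1* function causes hereditary haemorrhagic telangiectasia, a disease of arteriovenous malformations that can affect the brain.

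Promoter sequence is shown for 3 of the genes. *Id2* and *Id3* are textbook targets of Smad1 and Smad5, and *Eng* had the smallest p-value of the 10 in the main limma fit. The sequences are from RefSeq (GRCm38.p6), run 5′ to 3′ on the strand of the gene, and cover the 250 bases before the annotated start. A promoter was matched for 7 of the 10 genes, and *Id1*, *Acvrl1* and *Smad7* had none in the table used. Capitals mark GGCGCC, the GC-rich element that BMP-activated Smads bind, and CAGAC or its reverse complement GTCTG, the Smad box. The windows are chr4:136143572-136143821 on the plus strand for *Id3*, chr12:25096093-25096342 on the minus strand for *Id2* and chr2:32646345-32646594 on the plus strand for *Eng*.
*Id3*: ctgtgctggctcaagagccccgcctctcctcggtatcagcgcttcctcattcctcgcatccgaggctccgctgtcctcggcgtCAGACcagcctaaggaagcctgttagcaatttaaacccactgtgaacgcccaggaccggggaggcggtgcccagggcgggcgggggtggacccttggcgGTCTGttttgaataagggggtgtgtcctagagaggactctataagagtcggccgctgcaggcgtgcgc
*Id2*: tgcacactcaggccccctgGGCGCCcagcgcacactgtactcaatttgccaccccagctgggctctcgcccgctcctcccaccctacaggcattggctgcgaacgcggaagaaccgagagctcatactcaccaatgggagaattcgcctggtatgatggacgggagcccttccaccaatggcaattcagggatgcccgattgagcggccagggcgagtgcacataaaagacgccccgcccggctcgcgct
*Eng*: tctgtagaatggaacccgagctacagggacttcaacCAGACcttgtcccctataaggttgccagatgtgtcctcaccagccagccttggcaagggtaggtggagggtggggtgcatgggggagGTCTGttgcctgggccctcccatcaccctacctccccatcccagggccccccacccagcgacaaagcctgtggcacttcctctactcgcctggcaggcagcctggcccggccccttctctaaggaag

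The *Id3* window held 2 matches to the Smad box, the *Id2* window 1 match to GGCGCC, and the *Eng* window 2 matches to the Smad box. The motif GTTTC, which the paper reports as preferred by FOXQ1 at *Adck1* and *Hap1*, was not searched. The core of the forkhead motif, TGTTT or AAACA, was also searched because FOXQ1 is a forkhead protein. It had 1 match in the *Id3* window, which overlapped a Smad box, and 0 in those of *Id2* and *Eng*. Both strands were searched. Short motifs of this kind are common: GGCGCC was found in 9.59% of 32851 RefSeq promoter windows of the same length, the Smad box in 42.2% and the forkhead core in 46.4%. A match is a run of letters and not a measured binding site.

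The samples held between 15827166 and 21466436 reads on listed genes. The deposited values, called normalized counts here, were these reads divided by a size factor of each sample, between 0.919 and 1.19. *Foxq1* itself had 353 and 297 normalized counts in wild-type 1 and 2, against 5.44 and 32.6 in *Foxq1* cKO 1 and 2. The mean of the *Foxq1* cKO samples was 5.84% of that of the wild-type samples, which gave a log2 fold change of -4.47 (SE 1.04) with p 0.00507 before and 0.857 after adjustment in limma. *Foxq1* overlaps *A530084C06Rik* on the opposite strand, and reads of the 2 genes cannot be told apart if the counting ignored strand. Over all 12472 genes tested, 0 passed an adjusted p of 0.05 in limma (0%), and 651 had an unadjusted p under 0.05. In a 2 against 2 design the smallest p that an exact permutation test (two-sided) allows for 1 gene is 0.333. The limma p-values below rest only on the spread between these samples, which may be technical. Through the moderation they use the spread of other genes of similar level as well as that of the gene itself.

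Levels between genes were compared as normalized counts per kb of annotated exon, in all 4 samples. On this scale *Eng* was the highest of the 10, with a mean of 10151 normalized counts per kb, above 99.7% of all genes. *Id1* followed with 8501 and *Id3* with 7074 normalized counts per kb. These 3 genes stood apart from the rest: the lowest *Id3* sample had 6311 normalized counts per kb and the highest *Acvrl1* sample 1722. Below *Acvrl1*, with a mean level of 1478 per kb, came *Smad5* with 657, *Id2* with 497 and *Bmpr2* with 255.5. *Smad1* (89.6 per kb), *Smad7* (34.7 per kb) and *Smad6* (29.1 per kb) had the lowest levels per length. Neighbours in this order whose ranges over the 4 samples overlapped were *Eng* and *Id1*, *Id1* and *Id3*, *Smad5* and *Id2*, *Smad1* and *Smad7*, and *Smad7* and *Smad6*. Within a sample, *Id1* was above *Id3*, *Smad5* above *Id2* and *Smad1* above *Smad7* in 4 of 4 samples. *Eng* was above *Id1* in 3 of 4 and *Smad7* above *Smad6* in 2 of 4, so the order of *Eng* and *Id1* and of *Smad7* and *Smad6* is not set by these data.

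**Figure D1:**
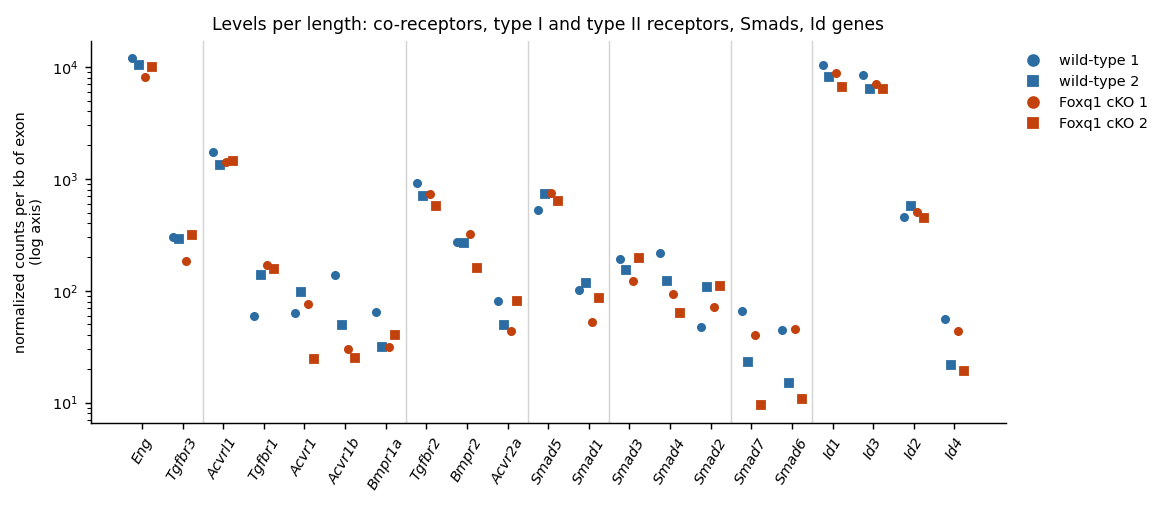
Levels of the 10 genes and of related receptors, Smads and *Id4* in normalized counts per kb of exon (log axis), 1 point per sample, with vertical lines between co-receptors, type I receptors, type II receptors, BMP-activated Smads, other activating Smads and Smad4, inhibitory Smads and *Id* genes. *Eng*, *Id1* and *Id3* lie near the top, *Acvrl1* lies above every other type I receptor drawn, and *Smad6* and *Smad7* lie near the bottom with a wide spread between samples.

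*Eng*, the co-receptor gene, had 48572 and 42547 normalized counts in wild-type cells, against 32840 and 40413 in *Foxq1* cKO cells. Both *Foxq1* cKO values lay below both wild-type values, with means of 36626 ± 5354 against 45560 ± 4261 (SD, n = 2 per group, as in all means below). The log2 fold change was -0.32 (SE 0.136, 95% interval -0.65 to 0.012), with p 0.0564 before and 0.857 after adjustment. The log2 fold change was -0.22 without wild-type 1, -0.41 without wild-type 2, -0.17 without *Foxq1* cKO 1 and -0.47 without *Foxq1* cKO 2. With all 4 samples the unadjusted p in limma was 0.349 in eBayes without a trend, 0.214 without moderation and 0.102 with quantile scaling. With a minimum mean of 50 this p was 0.0438. *Eng* is also a surface marker of ECs, and 8 of 15 endothelial marker genes, as against 2 in the other direction, had both *Foxq1* cKO values below both wild-type values, while 18% of all genes did in each direction. *Pecam1*, which encodes the CD31 protein used for the sort, had 14775 and 13823 normalized counts in wild-type cells, against 11143 and 13406 in *Foxq1* cKO cells. The ratio of *Eng* to *Pecam1*, per kb, was 5.06 and 4.74 in wild-type samples, against 4.53 and 4.64 in *Foxq1* cKO samples. *Pecam1* was chosen after its values were seen, and ratios of *Eng* to the other endothelial markers were not computed. The log2 fold changes of the 15 markers ranged from -0.60 (*Ly6c1*) to 0.30 (*Itm2a*), with a median of -0.14, and that of *Eng* lay inside this range. In bulk samples such as these, fewer cells of a type and less RNA per cell cannot be told apart. *Eng* overlaps *Fpgs* on the opposite strand, and its level may include reads of that gene if strand was ignored.

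*Acvrl1*, which encodes the type I receptor ALK1, had 7346 and 5648 normalized counts in wild-type cells, against 6028 and 6185 in *Foxq1* cKO cells. The *Foxq1* cKO values lay between those of the wild-type samples. Its log2 fold change was -0.077 (SE 0.178, 95% interval -0.51 to 0.36, p 0.680, adjusted p 0.960), and without wild-type 1 it was 0.11. Of the 5 listed type I receptor genes, *Acvrl1* had the highest level per kb in every sample. Its level per kb was 26.5 to 44.8 times that of *Bmpr1a*, 13.6 to 58.8 times that of *Acvr1* and 8.28 to 28.7 times that of the TGF-beta type I receptor gene *Tgfbr1*. *Acvrl1* overlaps the antisense gene *Gm16031*.

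*Bmpr2*, the BMP type II receptor gene, differed more within the *Foxq1* cKO group than between the groups. It had 4948 and 4760 normalized counts in wild-type cells, against 5819 and 2851 in *Foxq1* cKO cells, above and below both wild-type values. The log2 fold change of -0.25 (SE 0.334, 95% interval -1.07 to 0.56, p 0.478, adjusted p 0.913) rested on which *Foxq1* cKO sample was used: it was 0.26 (p 0.281) without *Foxq1* cKO 2 and -0.77 (p 0.0239) without *Foxq1* cKO 1. The TGF-beta type II receptor gene *Tgfbr2* had a higher level per kb than *Bmpr2* in every sample, by 2.27 to 3.63 times, and *Bmpr2* was 1.95 to 7.41 times as high per kb as the activin receptor gene *Acvr2a*.

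*Smad1* and *Smad5* encode the Smads that the BMP type I receptors phosphorylate. *Smad1* had 634 and 736 normalized counts in wild-type cells, against 331 and 543 in *Foxq1* cKO cells. Both *Foxq1* cKO values were below both wild-type values, and the *Foxq1* cKO mean of 437 ± 150 normalized counts was 63.8% of the wild-type mean of 685 ± 72.2. The log2 fold change of -0.69 (SE 0.423, 95% interval -1.72 to 0.35) did not pass the test (p 0.155, adjusted p 0.857), and it was -0.33 without *Foxq1* cKO 1 and -1.04 without *Foxq1* cKO 2. *Smad5* had 3920 and 5420 normalized counts in wild-type cells, against 5511 and 4662 in *Foxq1* cKO cells, which overlapped. It was the only gene of the 10 with a log2 fold change above 0, at 0.14 (SE 0.214, 95% interval -0.39 to 0.66, p 0.546, adjusted p 0.928), and without wild-type 1 the value was -0.097. *Smad5* was the higher of the pair in every sample, with a level per kb 5.22 and 6.22 times that of *Smad1* in wild-type and 14.1 and 7.24 times in *Foxq1* cKO samples. This ratio was not tested.

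The inhibitory Smad genes had the fewest reads and the widest spread. *Smad6*, whose product blocks mainly the BMP branch, had 144 and 47.9 normalized counts in wild-type cells, against 147 and 34.6 in *Foxq1* cKO cells. *Smad7*, whose product blocks both the BMP and the TGF-beta branch, had 301 and 104 in wild-type cells, against 181 and 42.7 in *Foxq1* cKO cells. For both genes the samples numbered 1 were higher than those numbered 2 in each group, by 1.57 and 2.06 on the log2 scale for *Smad6* and by 1.53 and 2.06 for *Smad7*. The median gap between 2 replicates over all genes on the same scale was 0.526 for wild-type and 0.411 for *Foxq1* cKO. The numbers in the labels are not known to pair samples across groups.

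With this spread, the intervals of both inhibitory Smad genes included a 2-fold difference in either direction, so a difference of that size was not detectable. The log2 fold change was -0.21 for *Smad6* (SE 1.06, 95% interval -2.81 to 2.38, p 0.847, adjusted p 0.982). It was 0.57 without wild-type 1 and 0.81 without *Foxq1* cKO 2. For *Smad7* it was -0.996 (SE 0.993, 95% interval -3.42 to 1.43, p 0.354, adjusted p 0.893), and 0.032 without *Foxq1* cKO 2. The 2 genes had between 34 and 357 reads in a sample.

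The *Id* genes encode inhibitors of basic helix-loop-helix transcription factors, and in ECs they serve as a readout of BMP signalling. *Id1* had 12135 and 9417 normalized counts in wild-type cells, against 10140 and 7752 in *Foxq1* cKO cells. The groups overlapped, and the log2 fold change was -0.27 (SE 0.197, 95% interval -0.75 to 0.21, p 0.219, adjusted p 0.868). Without 1 sample it ranged from -0.46 (without *Foxq1* cKO 1) and -0.45 (without wild-type 2) to -0.087 (without wild-type 1) and -0.076 (without *Foxq1* cKO 2). *Id3* had 15279 and 11302 normalized counts in wild-type cells, against 12628 and 11470 in *Foxq1* cKO cells, with both *Foxq1* cKO values inside the wild-type range. Its log2 fold change was -0.13 (SE 0.175, 95% interval -0.55 to 0.30, p 0.496, adjusted p 0.916) and 0.091 without wild-type 1. *Id2* had 1122 and 1403 normalized counts in wild-type cells, against 1235 and 1087 in *Foxq1* cKO cells, which overlapped. Its log2 fold change was -0.11 (SE 0.273, 95% interval -0.78 to 0.55, p 0.689, adjusted p 0.960) and 0.046 without wild-type 2.

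Within the *Id* family the makeup differed little between samples. *Id1* gave 49.3% to 54.0% of the summed level per kb of *Id1* to *Id4*, and *Id3* gave 42.0% to 47.3%. The ratio of *Id3* to *Id1* per kb was 0.777 to 0.958. *Id4*, the family member outside the 10, was low: the level of *Id3* per kb was 153 to 337 times that of *Id4*.

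**Figure D2:**
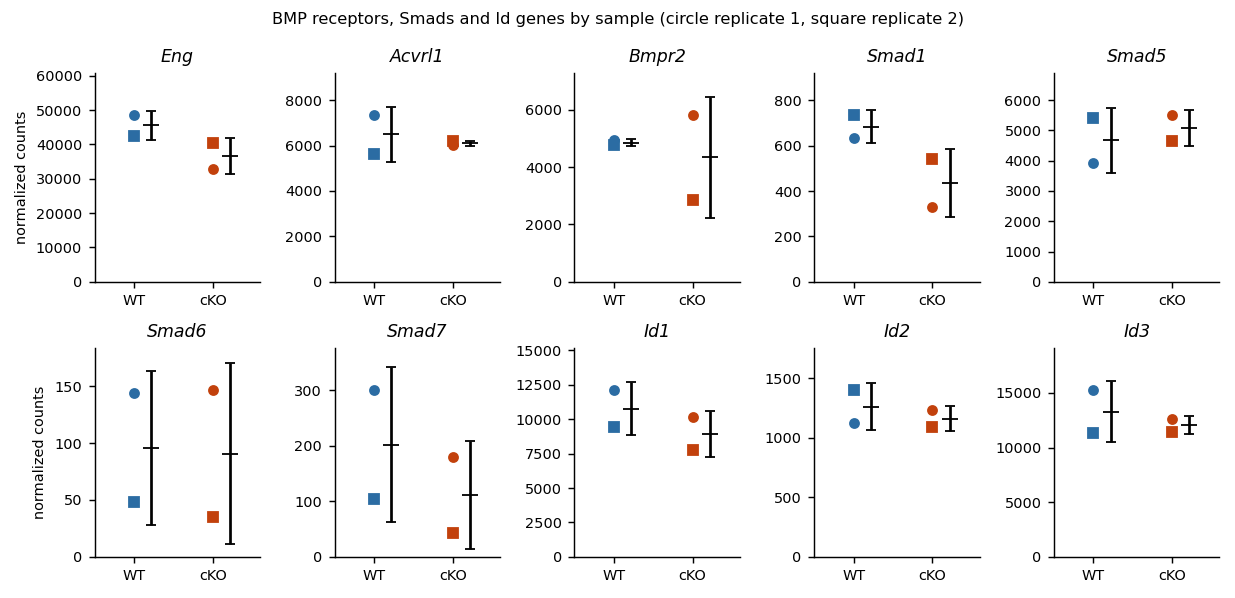
Normalized counts of the 10 genes in each sample (linear axes from 0), wild-type (WT, blue) and *Foxq1* cKO (cKO, orange), circles for replicate 1 and squares for replicate 2, with the mean and SD of each group beside the points. The groups separate for *Eng* and *Smad1*, while the *Bmpr2* values of the *Foxq1* cKO samples lie on either side of the wild-type values and *Smad6* and *Smad7* differ most between replicates.

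Of the 10 genes, 0 had an unadjusted p under 0.05 in limma and 0 an adjusted one. Over all genes tested, 5.22% had an unadjusted p under 0.05, with 2.17% higher and 3.05% lower in *Foxq1* cKO cells. Both *Foxq1* cKO values lay below both wild-type values in 2 of the 10, *Eng* and *Smad1*, against 18% of all genes, and above them in 0 of the 10, again against 18%. The 2 of 10 is near the background share. The log2 fold change was below 0 in 9 of the 10, against 6149 of the 12472 genes tested. The median was -0.23 for the 10 genes and 0.0086 over all genes. The members share their 4 samples, and for 7 of the 10 the sign depended on a single sample, as given above for each, so the common sign is only a description. The median size of the log2 fold change, without its sign, was 0.234 for the 10 genes and 0.365 for all genes, and the median SE was 0.244 against 0.496. In the main fit the narrowest intervals were those of *Eng*, *Id3* and *Acvrl1*. A difference of 2-fold in either direction lay outside the intervals of *Eng*, *Acvrl1*, *Smad5*, *Id1*, *Id2* and *Id3* in this fit. For *Eng*, *Smad5*, *Id1* and *Id3* this rested on the moderation with a trend. Without moderation their intervals reached -1.08, 1.27, -1.42 and -1.11. In eBayes without a trend they reached -1.17, 1.08, -1.21 and -1.03, so both settings included a 2-fold difference. Leaving out wild-type 2, *Foxq1* cKO 1 or *Foxq1* cKO 2 gave 1 of 10 with an unadjusted p under 0.05, and leaving out wild-type 1 gave 0.

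**Figure D3:**
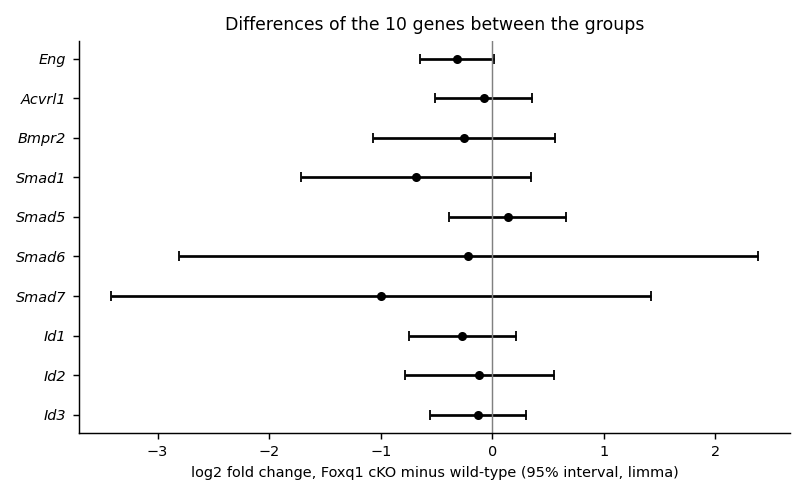
Log2 fold change of each of the 10 genes, *Foxq1* cKO minus wild-type, with its 95% interval from limma. Every interval includes 0, that of *Eng* only just (-0.65 to 0.012), and those of *Smad6* and *Smad7* are the widest.

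The rest of the BMP and TGF-beta pathway was described with 5 lists of 118 genes, of which 83 were in the table. A gene outside the table is only not listed there, since every listed gene had at least 1 read in each sample and 21 over the 4. Of the 83, 10 had an unadjusted p under 0.05, with 4 higher and 6 lower in *Foxq1* cKO cells, that is 12.05% against 5.22% of all genes, and 0 at an adjusted p under 0.05. Because the lists were chosen with earlier results of these data known, the larger share is only a description. The median log2 fold change of the 83 was 0.11. The count of 10 became 17 without wild-type 2 and 5 without *Foxq1* cKO 1. All 10 genes named in the next paragraphs had an adjusted p of 0.857 in limma.

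Ligand genes made up the list with the fewest members present, 8 of 22, and 0 had an unadjusted p under 0.05. *Tgfb2*, with the highest mean of them over the 4 samples, had 1047 ± 291 in wild-type and 1171 ± 187 in *Foxq1* cKO cells. *Bmp1* had the higher wild-type mean. It was counted in this list by its name, but it encodes a metalloprotease and not a ligand. *Gdf2* and *Bmp10*, which encode BMP9 and BMP10, and *Bmp2*, *Bmp4* and *Bmp6* were not listed. Of the other receptors and co-receptors, 10 of 16 were listed and 1 had an unadjusted p under 0.05. This was *Neo1*, which encodes neogenin, a co-receptor for repulsive guidance molecules and BMPs. It had 1009 and 563 normalized counts in wild-type cells, against 218 and 396 in *Foxq1* cKO cells, with a log2 fold change of -1.36 (SE 0.520, p 0.0395). That p became 0.168 without wild-type 1 and 0.185 without *Foxq1* cKO 1. *Tgfbr2* had the most normalized counts of this list, with 6570 ± 1238 in wild-type and 5358 ± 908 in *Foxq1* cKO cells (log2 fold change -0.29, p 0.208).

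Modulators outside the cell or in its membrane held 4 of these 10 genes. Of 11 listed from 21, 4 had an unadjusted p under 0.05, 3 of them higher and 1 lower in *Foxq1* cKO cells. *Bambi*, a receptor-like protein without a kinase domain that dampens TGF-beta and BMP signalling, had 3976 and 4559 normalized counts in wild-type cells, against 7851 and 8567 in *Foxq1* cKO cells. This was a log2 fold change of 0.95 (SE 0.158, 95% interval 0.56 to 1.33, p 0.000933). *Ltbp4*, which holds latent TGF-beta in the matrix, had 2492 and 1908 in wild-type cells, against 4124 and 4984 in *Foxq1* cKO cells, a log2 fold change of 1.06 (SE 0.221, 95% interval 0.52 to 1.59, p 0.00300). For both genes the gap between the groups was wider than the gaps between replicates, and both kept an unadjusted p under 0.05 in each of the 13 alternatives run.

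*Tmem100*, a membrane protein gene that ALK1 signalling induces in ECs, had 213 and 208 normalized counts in wild-type cells, against 369 and 833 in *Foxq1* cKO cells. The gap between the *Foxq1* cKO samples was wider than that between the lower of them and wild-type. Its log2 fold change was 1.39 (SE 0.564, p 0.0480), and it was 0.81 (p 0.318) without *Foxq1* cKO 2, while p was 0.0691 without wild-type 1 and 0.0741 without wild-type 2. *Htra1*, a secreted protease gene, had 3426 and 4228 in wild-type cells, against 1872 and 2786 in *Foxq1* cKO cells, a log2 fold change of -0.74 (SE 0.258, p 0.0286). Its p was 0.109 without wild-type 2 and 0.166 without *Foxq1* cKO 1. *Fstl1*, with the highest mean of the list over the 4 samples although *Bambi* was above it in both *Foxq1* cKO samples, had 5840 ± 785 in wild-type and 6964 ± 844 in *Foxq1* cKO cells (log2 fold change 0.26, p 0.196).

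Among the other Smads and the intracellular regulators, 30 of 31 were listed, and 1 was higher and 1 lower at an unadjusted p under 0.05. *Usp15*, a deubiquitinase gene of the pathway, had 1298 and 1026 normalized counts in wild-type cells, against 1912 and 2011 in *Foxq1* cKO cells (log2 fold change 0.76, SE 0.250, p 0.0220). *Lemd3*, which encodes an inner nuclear membrane protein that binds Smads, had 293 and 182 in wild-type cells, against 47.9 and 87.5 in *Foxq1* cKO cells (log2 fold change -1.82, SE 0.742, p 0.0490). Leaving out a sample took *Usp15* to a p of 0.0773 (wild-type 2), 0.0870 (*Foxq1* cKO 1) or 0.113 (*Foxq1* cKO 2). It took *Lemd3* to 0.156 (wild-type 1), 0.183 (*Foxq1* cKO 1) or 0.0671 (*Foxq1* cKO 2). *Fkbp1a*, whose product binds type I receptors, was the most abundant, with 16469 ± 771 and 18330 ± 2208 normalized counts (log2 fold change 0.15, p 0.298).

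The last list held the partners of Id proteins and known BMP or TGF-beta target genes, 24 of 28 listed. At an unadjusted p under 0.05, 0 were higher and 3 lower in *Foxq1* cKO cells. *Fn1*, the fibronectin gene and the most abundant of the list, had 32362 and 29788 normalized counts in wild-type cells, against 15488 and 21793 in *Foxq1* cKO cells (log2 fold change -0.76, SE 0.177, p 0.00503). The matricellular gene *Ccn1* had 9222 and 9084 in wild-type cells, against 5803 and 5310 in *Foxq1* cKO cells (log2 fold change -0.72, SE 0.141, p 0.00207). *Ccn2*, which encodes connective tissue growth factor, had 807 and 901 in wild-type cells, against 349 and 364 in *Foxq1* cKO cells (log2 fold change -1.26, SE 0.364, p 0.0133). In all 3 genes both *Foxq1* cKO values lay below both wild-type values. The p of *Ccn2* was 0.0560 without *Foxq1* cKO 1, that of *Ccn1* 0.0614 in eBayes without a trend, and that of *Fn1* 0.0853 in eBayes without a trend and 0.0962 without moderation. These 3 genes also respond to signals other than BMP and TGF-beta, such as YAP and matrix stiffness.

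**Figure D4:**
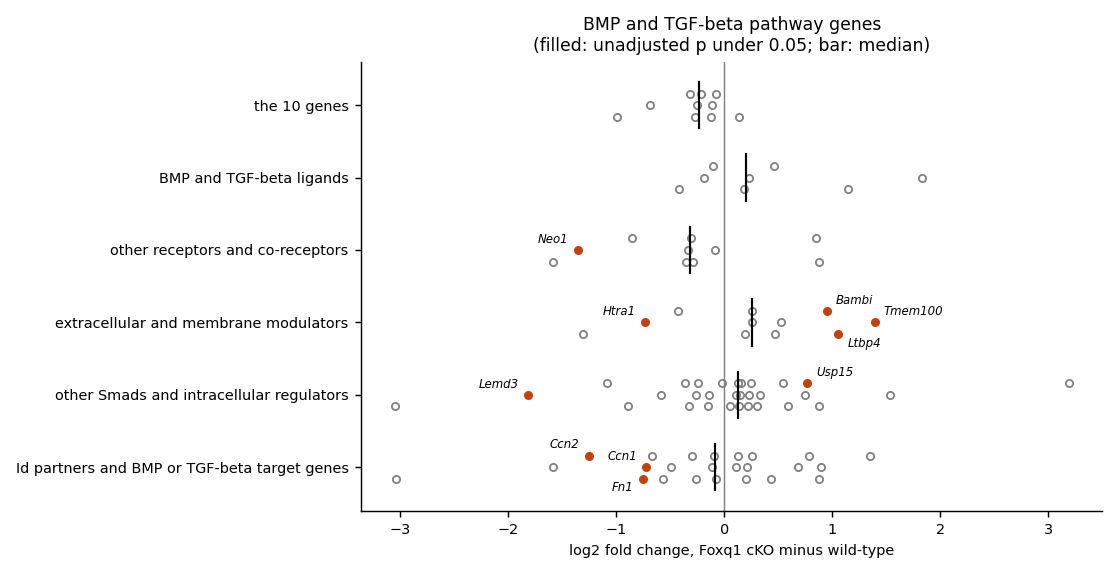
Log2 fold change, *Foxq1* cKO minus wild-type, of the 10 genes and of the 83 listed genes of the 5 pathway lists, 1 point per gene, filled where the unadjusted p is under 0.05 and with a bar at the median of each list. The filled points are 10 in number (4 to the right of 0 and 6 to the left), and none belongs to the 10 genes of the top line.

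Marker genes showed which cells the sorted samples held. Endothelial markers, with 15 of 15 listed, summed to 446475 to 493993 normalized counts in wild-type and 425799 to 464941 in *Foxq1* cKO samples. At an unadjusted p under 0.05, 1 of them was higher (*Itm2a*, p 0.0246) and 2 were lower (*Flt1* and *Ly6c1*), against 5.22% of all genes. The p of *Itm2a* was 0.136 without wild-type 2, 0.0885 without *Foxq1* cKO 1 and 0.0684 without *Foxq1* cKO 2, and it was 0.356 in eBayes without a trend and 0.113 without moderation. The tight junction gene *Cldn5*, the most abundant in normalized counts, did not pass (p 0.161). Pericyte and smooth muscle markers were also high, with sums of 155228 to 157871 in wild-type and 148261 to 162731 in *Foxq1* cKO samples. Of these, 10 of 13 were listed (not *Acta2*, *Tagln* and *Myh11*), led by *Rgs5*, and 0 had an unadjusted p under 0.05. Erythroid markers, 7 of 7 listed and led by *Hba-a1*, summed to 15770 to 20859 and 16022 to 20516, and fibroblast and meningeal markers, 4 of 7 listed and led by *Col1a2*, to 2650 to 4931 and 2313 to 4377, with 0 at that p in both lists.

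The sums of 3 other marker lists were lower in *Foxq1* cKO samples and did not overlap between the groups. The same held for the sum over all genes, which was 1.78e+07 to 1.81e+07 in wild-type and 1.72e+07 to 1.73e+07 in *Foxq1* cKO samples. Microglia and macrophage markers (13 of 13 listed) summed to 10015 to 12576 in wild-type and 7925 to 8301 in *Foxq1* cKO samples, with 3 genes above and 3 below without overlap, where 18% of all genes did so in each direction. Despite the lower sum, 7 of the 13 had a log2 fold change above 0, and the median was 0.063. The gene of this list with the highest mean over the 4 samples was *Csf1r*, the receptor of a macrophage growth factor, which had 3365 and 2579 normalized counts in wild-type cells, against 1732 and 1587 in *Foxq1* cKO cells (p 0.0109). Its p was 0.0562 without wild-type 1, 0.0644 without *Foxq1* cKO 2, 0.0575 in eBayes without a trend and 0.0545 without moderation. Neural progenitor and glia markers (10 of 12 listed) summed to 26935 to 27126 and 24939 to 25329, with 1 above and 6 below, against the same 18% each way. Of the 10, 3 had a log2 fold change above 0 and 7 below. The astrocyte gene *Gfap*, with the smallest p in limma, had 3073 and 2420 in wild-type cells, against 1081 and 1329 in *Foxq1* cKO cells (p 0.00310). *Nes*, with the highest mean over the 4 samples, went the other way. It had 5293 and 5639 in wild-type cells, against 8608 and 6317 in *Foxq1* cKO cells (log2 fold change 0.43, limma p 0.0641). Neuron markers (8 of 12 listed) summed to 5800 to 6080 and 4177 to 5734, with 0 above and 1 below, again against 18% each way. The part of these other cells in the values of *Eng*, *Smad1* and the pathway genes was not tested.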

How the data were processed

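The RNA-seq samples, 2 wild-type and 2 *Foxq1* cKO, were grouped by their genotype label. The authors deposited 1 table with a normalized signal per gene. Per the labels, the processing used Bowtie2 2.2.3, TopHat2 2.0.12 and HTSeq 0.6.0 with mm9, and whether counting used strand is not given in the sources used here. The labels give Trizol RNA with 2 ug of input and the paper names Smart-seq2, and which applies was not resolved. The 1207361 lines repeat genes with identical values and were reduced to 12693 symbols, of which 8 had 2 identifiers. All values of the signal were whole multiples of the worth of 1 read in their sample, within 0.01 of a read. Intervals on reads cover counting error only, since amplified reads without molecular identifiers are not independent molecules.

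The log2 signal, with a pseudocount of 1, was compared with limma 3.58.1 (lmFit, eBayes with a trend, Benjamini-Hochberg adjustment) in R 4.3.3, for the 12472 genes whose mean reached 10, after a test on simulated data. Fold changes are on this log2 scale and understate those of low genes. Exon lengths and overlaps were taken from GENCODE M21 (GRCm38) for 12678 symbols, and since the files use mm9 no gene coordinates are given. Promoter windows are from RefSeq. Alternatives were pseudocounts of 0.1 and 5, a minimum mean of 50 or none, TMM or quantile scaling, eBayes without a trend or none at all, a replicate block, and leaving out each sample. The count-based tests in the plan were not run. Named were the 10 genes, *Foxq1*, the genes of each pathway list with an unadjusted p under 0.05, and the gene of each list with the highest mean over the 4 samples. Of each marker list the gene with the highest such mean and that with the smallest p were followed. The 10 genes and the lists were chosen with earlier results of these data known. *Pecam1*, *Id4* and the receptor genes in ratios were added after their values were seen, and ratios were not tested. Tables and figures were made in Python 3.11.15 with pandas 2.3.3 and matplotlib 3.10.9.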

Additional observations from a re-analysis of the deposited data

How the results depend on the processing

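With 2 samples a group, leaving out 1 leaves a lone sample that is assumed to vary like the others. Without each sample in turn, between 276 (without *Foxq1* cKO 1) and 1569 (without wild-type 2) of all genes had an unadjusted p under 0.05, and with all 4 samples 592 to 695 in 9 alternatives. The count was 0 to 1 of the 10 BMP genes and 5 to 17 of the pathway lists. An adjusted p under 0.05 was reached by 0 genes in all 13 alternatives (limma). With a minimum mean of 50, 1 of the 10 passed the unadjusted threshold (*Eng*, p 0.0438). In place of 10 pathway genes, eBayes without a trend gave 5 (*Ccn1*, *Fn1*, *Htra1*, *Neo1*, *Tmem100* and *Usp15* then had p 0.0542 to 0.113). Without moderation the count was 7 (*Fn1*, *Htra1*, *Lemd3*, *Neo1* and *Tmem100* then had p 0.0796 to 0.152). Both counts include pathway genes that were not among the 10 of the main fit. *Foxq1* without moderation had p 0.0649 at the same log2 fold change of -4.47. The cause was not tested.

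The sign of the log2 fold change turned with quantile scaling for *Acvrl1* (0.027), *Hba-a1* (0.082) and *Rgs5* (-0.066). On leaving out samples the values ranged across 0, from -0.27 to 0.11 for *Acvrl1*, -0.77 to 0.26 for *Bmpr2*, -0.097 to 0.37 for *Smad5*, -1.24 to 0.81 for *Smad6*, -2.02 to 0.032 for *Smad7*, -0.28 to 0.046 for *Id2* and -0.34 to 0.091 for *Id3*. The same held from -0.11 to 0.47 for *Tgfb2*, -0.38 to 0.47 for *Col1a2*, -0.24 to 0.16 for *Hba-a1* and -0.015 to 0.045 for *Rgs5*. With all 4 samples, 88 of 90 values of the BMP genes kept their sign and their side of an unadjusted p of 0.05.

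With the replicate number as a replicate block, 693 of all genes, 0 of the 10 and 12 of the pathway genes had an unadjusted p under 0.05, and 0 genes an adjusted one (smallest adjusted p 0.0562). The numbers were not taken to pair samples: the differences between replicates 1 and 2 of the groups correlated over 12472 genes with r = 0.032. Under this block *Tmem100* (p 0.0516) and *Lemd3* (p 0.0764) no longer had a p under 0.05. Count-based tests were not run. Of the 10 genes, precision was lowest for *Smad6* and *Smad7*, with 34 to 357 reads in a sample, and no gene with 0 reads in a sample is listed.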

Other observations

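*Smad6* and *Smad7* differed from sample to sample together, and their reads were therefore also set against each other within each sample, a comparison chosen after the values were seen. Of the reads on both genes, *Smad7* took 67.6% in wild-type 1 (357 of 528, exact Clopper-Pearson 95% interval 63.4% to 71.6%) and 68.4% in wild-type 2 (104 of 152, 60.4% to 75.7%). In *Foxq1* cKO 1 it took 55.1% (166 of 301, 49.3% to 60.9%) and in *Foxq1* cKO 2 55.3% (42 of 76, 43.4% to 66.7%). The wild-type shares lay above those of both *Foxq1* cKO samples, and the intervals, which cover counting error only, overlapped for each pair of a wild-type and a *Foxq1* cKO sample except wild-type 1 and *Foxq1* cKO 1. The difference between the groups was not tested. Total reads of the pair ranged from 76 to 528 in a sample while the share within a group stayed within 1 percentage point.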
